A study of Rattus norvegicus with 2 samples.

Results

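The genes that present antigen to T cells were compared between 2 libraries of rat intracranial artery: an aneurysm lesion taken 3 weeks after induction (1 array) and intracranial arterial wall without treatment (1 array, the control). They were taken as every rat gene whose symbol starts with RT1-, the rat major histocompatibility complex (MHC), plus 16 named genes of antigen processing, loading and co-stimulation. The gene table holds 83 such genes, of which 53 had a matched probe (38 RT1- genes and 15 others), among 15159 genes with a matched probe in all. The labels give the disease state but name no strain, sex, age, number of animals or method of induction, and 1 array stands for each state.

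MHC class I molecules are cell surface proteins made of a heavy chain and the light chain beta-2-microglobulin, and they display peptides from inside the cell to CD8+ T cells. The peptides are cut by the proteasome, whose interferon-induced subunits form the immunoproteasome, carried into the endoplasmic reticulum by the TAP transporter and loaded with help from tapasin and folding chaperones. Class II molecules are pairs of an alpha and a beta chain that display peptides from endosomes to CD4+ T cells. They are chaperoned by the invariant chain (Cd74), and their genes are switched on by the transactivator Ciita, chiefly in dendritic cells, macrophages and B cells. Interferon gamma raises both systems in many cell types, including those of the arterial wall.

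Upstream sequences are shown for the 7 genes on which the comparisons below turn, because class I, class II and peptide loading genes carry known control elements there. They are RefSeq sequences of rat build GRCr8 from chromosome 20, each from 200 bases before to 20 after the annotated start, written 5′ to 3′ on the gene's own strand. Of the 53 genes with a matched probe, 45 had a promoter in the RefSeq table. In the class II genes RT1-Db1 (chr20:4560143-4560362, minus strand), RT1-Bb (chr20:4604099-4604318, minus strand) and RT1-Da (chr20:4515215-4515434, plus strand) capitals mark CCAAT or its reverse ATTGG, the box bound by the factor NF-Y.
RT1-Db1: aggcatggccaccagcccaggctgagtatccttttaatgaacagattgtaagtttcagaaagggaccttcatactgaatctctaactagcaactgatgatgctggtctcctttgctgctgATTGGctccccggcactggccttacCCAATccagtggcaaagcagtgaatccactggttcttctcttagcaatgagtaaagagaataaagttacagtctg
RT1-Bb: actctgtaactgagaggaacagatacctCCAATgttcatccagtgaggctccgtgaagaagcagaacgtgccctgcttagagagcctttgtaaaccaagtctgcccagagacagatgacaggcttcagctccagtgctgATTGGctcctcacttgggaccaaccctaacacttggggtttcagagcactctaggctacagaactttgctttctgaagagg
RT1-Da: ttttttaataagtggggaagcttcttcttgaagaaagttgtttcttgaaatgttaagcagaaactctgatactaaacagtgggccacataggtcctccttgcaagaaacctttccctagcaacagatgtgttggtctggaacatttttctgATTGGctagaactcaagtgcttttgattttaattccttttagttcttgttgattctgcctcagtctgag
In the class I genes RT1-CE16 (chr20:3265424-3265643, minus strand) and RT1-A1 (chr20:4907009-4907228, plus strand) capitals mark GGGNNTTCC, a form of the NF-kappaB site.
RT1-CE16: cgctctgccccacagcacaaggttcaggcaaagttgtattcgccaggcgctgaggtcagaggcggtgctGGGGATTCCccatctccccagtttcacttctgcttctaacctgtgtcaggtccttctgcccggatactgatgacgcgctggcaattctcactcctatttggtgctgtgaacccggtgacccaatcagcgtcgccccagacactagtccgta
RT1-A1: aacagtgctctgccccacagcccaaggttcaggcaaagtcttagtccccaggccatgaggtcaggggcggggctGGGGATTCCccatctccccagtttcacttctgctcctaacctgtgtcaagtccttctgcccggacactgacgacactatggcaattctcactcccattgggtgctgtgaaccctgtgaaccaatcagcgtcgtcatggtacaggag
In Tap1 (chr20:4668524-4668743, minus strand) and Psmb8 (chr20:4657012-4657231, minus strand) capitals mark GAAANNGAA, read here on the opposite strand, a form of the core of the interferon-stimulated response element.
Tap1: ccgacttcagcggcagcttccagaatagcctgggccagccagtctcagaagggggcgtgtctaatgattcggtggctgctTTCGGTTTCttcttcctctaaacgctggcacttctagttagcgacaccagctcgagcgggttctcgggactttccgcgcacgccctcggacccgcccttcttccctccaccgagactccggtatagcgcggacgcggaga
Psmb8: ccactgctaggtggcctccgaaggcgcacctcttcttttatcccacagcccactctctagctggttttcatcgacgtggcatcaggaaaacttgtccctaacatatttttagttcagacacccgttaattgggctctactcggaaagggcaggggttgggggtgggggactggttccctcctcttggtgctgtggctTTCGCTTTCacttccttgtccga

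The motifs were counted on both strands in windows of 250 bases before to 50 after the start, each motif on its own even where matches overlapped. CCAAT was present in 9 of 9 class II promoters, in 22 of 33 class I promoters (66.7%) and in 37.5% of the 33469 promoters of the table. With its usual class II flank, as TGATTGG, it was again present in 9 of 9 class II promoters, in 15 of 33 class I promoters (45.5%) and in 7.06% of all promoters. This longer form was searched after the class II sequences had been seen, and its matches lie within those of CCAAT. GGGNNTTCC was present in 10 of 33 class I promoters (30.3%), among them RT1-A1, RT1-A2 and 6 of the RT1-CE genes, in 2 of 9 class II promoters (22.2%), in that of Cd74 and in 5.92% of all promoters. GAAANNGAA was present in 6 of 9 promoters of the light chain, immunoproteasome, peptide transport and loading genes (66.7%), in 3 of 33 class I promoters (9.09%), in 0 of 9 class II promoters and in 9.71% of all promoters. Related spellings were not searched, so a low share of these exact letters does not show that the element is absent. RT1-CE16 and RT1-A1, for instance, hold TTTCACTTC after the NF-kappaB site, which this pattern does not match. TTCNNNGAA, the gamma-activated site, was present in 4 of 55 promoters of the antigen presentation genes (7.27%) and in 8.87% of all promoters. Class I genes are copies of one another, so their promoters are not separate observations, and a match of letters does not show a bound site.

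Levels below are log2 of the processed signal relative to the 75th percentile of the same array, so that 0 is that percentile. A difference is aneurysm minus control on the log2 scale, followed after ± by its spot error, which comes from the spread of repeat spots on an array. The spot error holds no variation between animals, so each difference describes these 2 libraries, with no test across samples and no p-value, and the number of arrays limits the precision. A gene was represented by its brightest probe, and probes differ in binding, so levels are compared between arrays and not between genes. In bulk tissue fewer cells of a type and less RNA per cell cannot be told apart.

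The share of non-control spots well above background was 76.4% on the aneurysm array and 74.7% on the control array, and no spot was saturated. The libraries also differed in RNA of tissues other than artery. All 8 hepatocyte markers (median -4.87), all 7 oligodendrocyte markers (median -1.14) all 5 measured pituitary markers (median -1.41) and 5 of 6 neuron markers (median -0.42) were lower in the aneurysm library. The summed scaled signal of the hepatocyte list was 8.50 in the aneurysm library and 43.9 in the control library. The part of this RNA in the differences below was not tested. Contractile smooth muscle markers, which define arterial media, were present in both libraries, with a summed signal of 119.5 in the aneurysm and 108.7 in the control.

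Antigen presentation genes had mostly higher signals in the aneurysm library. On the brightest probes class I heavy chains had larger differences than the other groups. Every RT1- gene outside class II was counted as a class I heavy chain, including RT1-CE6 and RT1-T24-2, which the reference lists as non-coding RNA. Of the 53 matched genes, both arrays had 41 well above background, the aneurysm array alone 2, the control array alone 2, and 8 were so on neither. Among the 41 genes measured on both arrays 39 were higher in the aneurysm (95.1%), with a median difference of 0.45, while 50% of 11201 such genes over the whole array were higher. At least 2-fold higher were 5 of the 41 (12.2%), against 0.455% of all such genes. With the 4 genes measured on 1 array included, 41 of 45 were higher (91.1%), against 50.2% of all 11903 genes, and the median was 0.40, against 0.001 for all genes. On that count 6 were at least 2-fold higher (13.3%, against 0.882% of all genes), all class I heavy chains, and 18 were at least 1.5-fold higher (40%, against 4.25%). The count of 6 was 2 with normexp (against 0.121% of all genes), 3 when centred on smooth muscle markers (0.487%) and 14 with spike-in scaling (2.60%). Class II genes passed 2-fold on some second probes. At least 2-fold lower were 2 of 45, against 3.91% of all genes. In 28 of the 34 genes with 2 or more spots, every aneurysm spot lay above every control spot (82.4%), against 35.1% of 9134 genes over the array. The class I genes are near-identical copies of one another and a probe can bind several of their transcripts, so these counts hold fewer separate observations than genes.

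**Figure D1:**
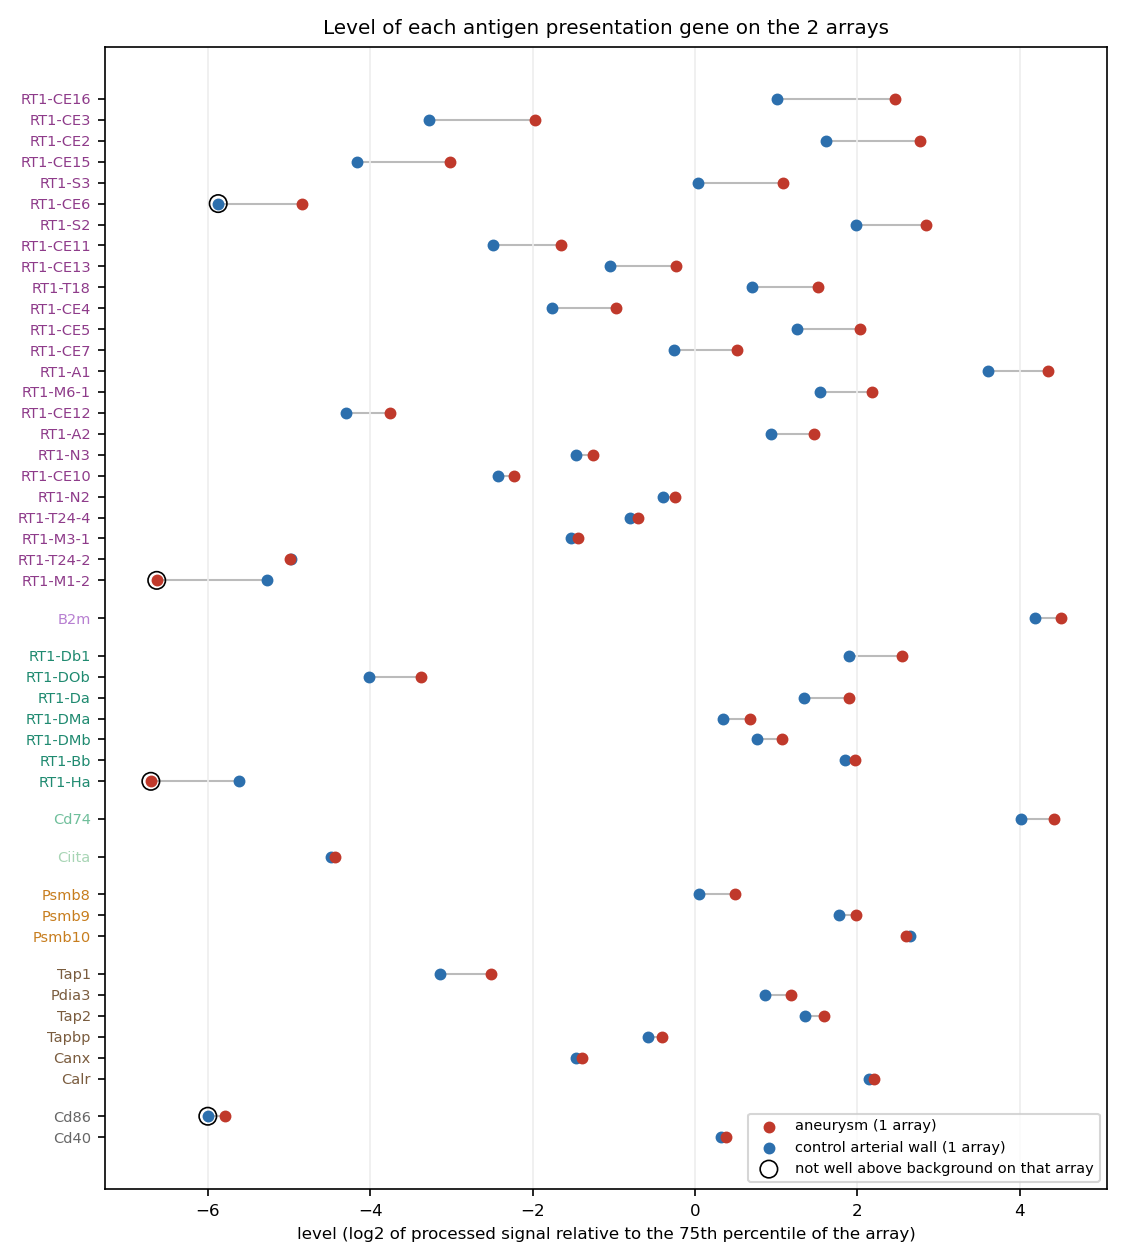
Level of each antigen presentation gene on the aneurysm array (red) and the control array (blue), as log2 of processed signal relative to the 75th percentile of the array, grouped by role. Circled points were not well above background on that array. The red points lie right of the blue ones in 41 of 45 genes, with the widest gaps among the class I heavy chains, and levels of different genes come from different probes and are not comparable.

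With each gene taken by its brightest probe, class I heavy chains had the largest differences. Of 29 matched heavy chain genes 24 had a difference and 22 of these were higher in the aneurysm library, with a median of 0.78, equal to 1.72-fold. The range was -1.35 to 1.45, 6 genes were at least 2-fold higher (0.882% of all genes) and 15 of 24 at least 1.5-fold higher (62.5%, against 4.25% of all genes). Among the 22 measured on both arrays 21 were higher and 5 at least 2-fold higher (22.7%, against 0.455% of all such genes). The 21 antigen presentation genes with a difference that are not heavy chains had a median of 0.23, and 0 of them were at least 2-fold higher.

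The RT1-CE genes are a cluster of mostly non-classical class I genes. All were higher in the aneurysm library (12 of 12, against 50.2% of all genes), with a median of 0.82. An exception was RT1-CE12 with normexp background correction, where it differed by -0.02. With the bound of RT1-CE6 included, 5 were at least 2-fold higher, against 0.882% of all genes. Among the 11 measured on both arrays 4 were (36.4%, against 0.455% of all such genes). RT1-CE16 had spot levels of 2.46 and 2.47 in the aneurysm and 0.98 and 1.04 in the control. Its difference of 1.45 ± 0.06, or 2.74-fold, was the only one of 2-fold or more under all 12 other processing settings. RT1-CE3 had -1.91 and -2.03 in the aneurysm against -3.21 and -3.35 in the control (1.31 ± 0.17, 0.83 with normexp). RT1-CE2 had 2.80 and 2.74 in the aneurysm against 1.63 and 1.61 in the control (1.16 ± 0.06, 0.82 as the mean over its probes). The aneurysm and control spots of these genes did not overlap, and the gaps were many times the spread between spots.

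RT1-CE15 was dim, with a mean level of -3.02 in the aneurysm against -4.16 in the control over 2 spots each, and its difference of 1.15 ± 0.36 was 0.40 with normexp. RT1-CE6 was well above background on the aneurysm array only, at -4.84 against -5.87 in the control, on 1 spot each. Its bound of 2.05-fold (1.03 ± 0.76) equals the measured difference, because the control value lay above the lowest level called well above background. That spot error is large beside the bound, which was 0.89 when centred on smooth muscle markers. Next came RT1-CE11 (0.84 ± 0.14), RT1-CE13 (0.81 ± 0.08), RT1-CE4 (0.79 ± 0.11), RT1-CE5 (0.78 ± 0.08) and RT1-CE7 (0.78 ± 0.10), which differ from one another by less than their spot errors. RT1-CE12 differed by 0.55 ± 0.38. RT1-CE10 had the smallest difference of the cluster (0.19 ± 0.14), with -2.21 and -2.26 in the aneurysm and -2.39 and -2.45 in the control.

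RT1-A1 and RT1-A2 are classical class I genes, whose products present peptides to most CD8+ T cells. RT1-A1 had spot levels of 4.39 and 4.30 in the aneurysm and 3.62 and 3.59 in the control, a difference of 0.74 ± 0.05 or 1.67-fold. RT1-A2 had 1.43 and 1.51 in the aneurysm and 0.91 and 0.96 in the control (0.53 ± 0.06, 1.44-fold). The aneurysm and control spots were apart in both genes. B2m, the light chain that all class I heavy chains need to reach the surface, had 4.53 and 4.50 in the aneurysm against 4.26 and 4.11 in the control, a smaller difference of 0.33 ± 0.05 or 1.25-fold.

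Among the non-classical genes outside the CE cluster the values split. RT1-S3, the rat counterpart of mouse H2-T23 (Qa-1), which presents leader peptides to NK cell receptors, had 1.12 and 1.06 in the aneurysm and 0.04 on each control spot. The difference was 1.05 ± 0.07, or 2.07-fold, and 0.96 with normexp. RT1-S2 differed by 0.86 ± 0.06, RT1-T18 by 0.80 ± 0.09 on 1 spot per array, and RT1-M6-1 by 0.64 ± 0.06. RT1-T18 and RT1-M6-1 each have a second probe that neither array had well above background. For RT1-T18 its levels were -6.21 in the aneurysm and -6.29 in the control, against 1.51 and 0.71 on the brightest probe. For RT1-M6-1 they were -7.86 and -7.31, against 2.19 and 1.54. Which probe measures each gene was not tested. Smaller differences were found for RT1-N3 (0.21 ± 0.09) and RT1-N2 (0.15 ± 0.07). The value of RT1-T24-2 was within its spot error (-0.01 ± 0.74, and 0.30 with spike-in scaling). RT1-T24-4 (0.10 ± 0.12) and RT1-M3-1 (0.08 ± 0.09) had differences within their spot errors, with -0.04 and -0.07 when the arrays were centred on smooth muscle markers. RT1-M3-1, which presents N-formylated bacterial peptides, belongs to the M family. Of 8 matched M genes 5 had no probe well above background. RT1-M1-2 was well above background on the control array only, with -6.22 and -7.04 in the aneurysm and -4.33 and -6.22 in the control. Its measured signal was 2.56-fold higher in the control (-1.35 ± 0.66 as aneurysm minus control, -0.56 with normexp), against a dim aneurysm value. The control spots were 1 high and 1 low.

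**Figure D2:**
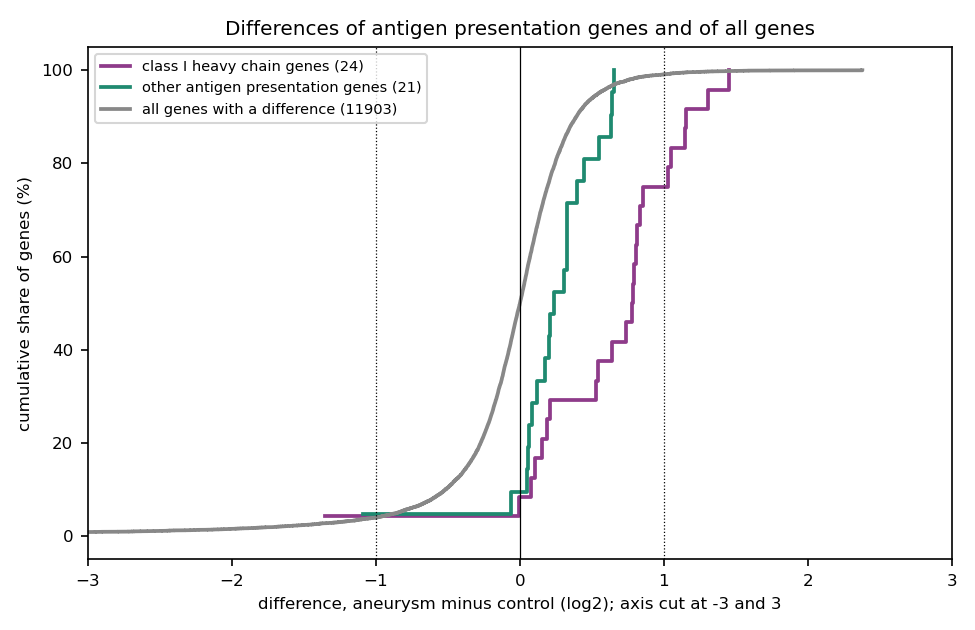
Cumulative share of genes (percent) by difference, aneurysm minus control on the log2 scale, for 24 class I heavy chain genes (purple), the 21 other antigen presentation genes (green) and all 11903 genes with a difference (grey), with dotted lines at 2-fold. The class I curve lies to the right, with a median of 0.78, the other antigen presentation genes have a median of 0.23, and all genes are centred at 0.001.

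The genes of the complex lie together on chromosome 20, which holds 72 of the 83 genes, and larger and smaller differences were interleaved along it. In the gene order of the reference, RT1-N2 (0.15), RT1-S2 (0.86), RT1-N3 (0.21), RT1-S3 (1.05) and RT1-T24-4 (0.10) follow one another among the measured genes, so that neighbours alternated between small and large differences. The next block, from RT1-CE16 to RT1-CE2, held 12 measured genes, 10 of them at least 1.5-fold higher (83.3%, against 4.25% of all genes), where RT1-CE6 is a bound. After it came the class II genes with Tap2, Psmb8, Tap1 and Psmb9 between them, and last RT1-A2, RT1-A1 and Tapbp. In this class II stretch no gene was 2-fold higher on its brightest probe. The second probes of RT1-Bb (1.79) and RT1-Db1 (1.11) were past 2-fold.

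**Figure D3:**
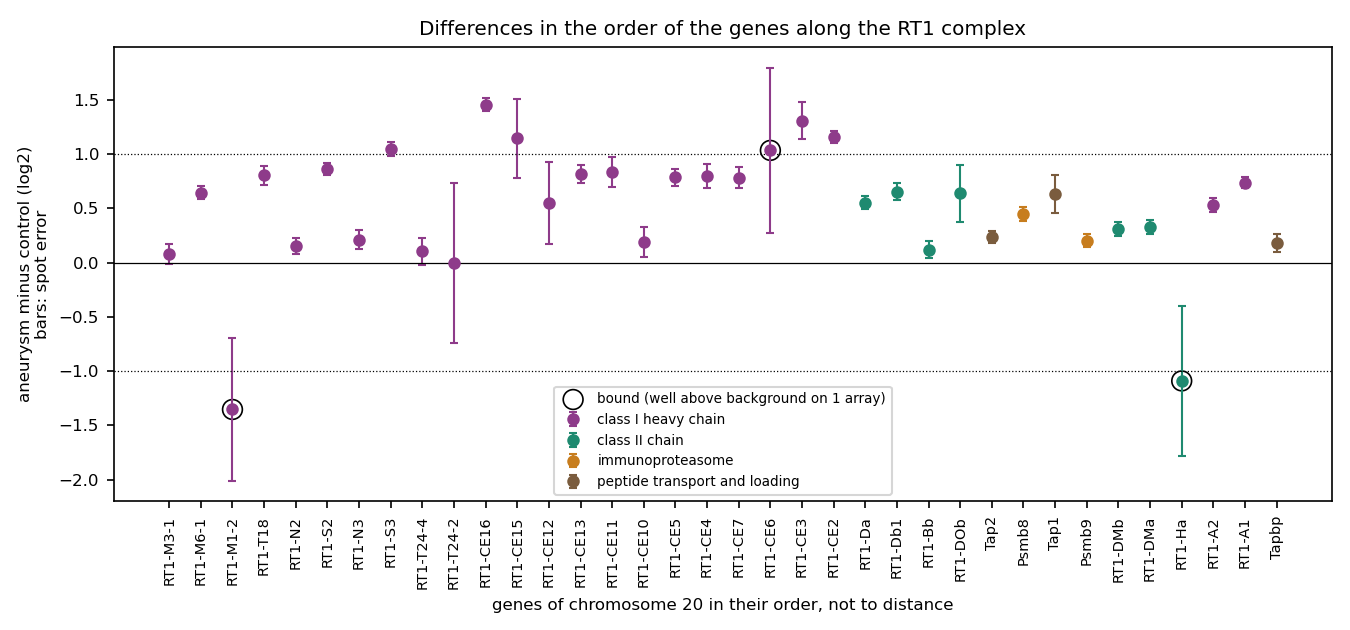
Difference, aneurysm minus control (log2), of the measured genes of the rat MHC in their order along chromosome 20, not to distance. Each gene is shown by its brightest probe. Bars are the spot error, circles mark bounds and dotted lines mark 2-fold. The RT1-S genes stand above their RT1-N neighbours, and the CE cluster from RT1-CE16 (1.45) to RT1-CE2 (1.16) has a median of 0.82, against 0.33 for the class II chains.

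Class II chains were moderately higher. Of 9 matched class II chain genes 7 had a difference, with a median of 0.33 (1.26-fold). Of these 6 were higher in the aneurysm library (85.7%, against 50.2% of all genes). On the brightest probes 2 were at least 1.5-fold higher (28.6%, against 4.25% of all genes) and 0 at least 2-fold (0.882% of all genes). RT1-Db1 and RT1-Da encode the beta and alpha chain of the molecule related to human DR. RT1-Db1 had 2.56 in the aneurysm and 1.90 in the control on 1 spot each (0.65 ± 0.08), and RT1-Da had 1.86 and 1.94 in the aneurysm and 1.34 and 1.36 in the control (0.55 ± 0.06). On these probes the chains were 1.57-fold and 1.47-fold higher, while the second RT1-Db1 probe gave a larger difference of 1.11 ± 0.06. RT1-Bb, the beta chain of the molecule related to human DQ, had 1.97 in the aneurysm and 1.85 in the control on its brightest probe (0.12 ± 0.08, and -0.03 when centred on smooth muscle markers). Neither array had its partner RT1-Ba well above background, with -7.92 and -6.86 in the aneurysm and -7.38 and -7.36 in the control, so the probe gave no measure of that pair's alpha chain.

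RT1-DMa and RT1-DMb form the DM molecule, which exchanges peptides on class II. RT1-DMa had 0.61 and 0.74 in the aneurysm against 0.29 and 0.41 in the control (0.33 ± 0.06), and RT1-DMb had mean levels of 1.07 in the aneurysm and 0.76 in the control (0.31 ± 0.06). The chains of DM were higher by about the same amount. RT1-DOb, a chain of the DM modulator DO, was dimmer and differed by 0.64 ± 0.26, and by 0.10 with normexp, while neither array had RT1-DOa well above background. RT1-Ha, related to the human DP alpha chain, was well above background on the control array only. Its measured signal was 2.13-fold higher in the control (-1.09 ± 0.69, -0.37 with normexp). Its aneurysm spots lay at -6.75 and -6.66 and its control spots at -4.75 and -6.48, so that 1 control spot carried most of the difference.

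Cd74, the invariant chain, had 4.40 and 4.44 in the aneurysm and 3.98 and 4.07 in the control, a difference of 0.40 ± 0.05 or 1.32-fold. Ciita, the transactivator of class II genes, was dim in both libraries, with -4.42 and -4.44 in the aneurysm and -4.70 and -4.28 in the control. Its spots overlapped, and the difference of 0.06 ± 0.39 was -0.23 with normexp and 0.37 with spike-in scaling, so these arrays do not set its direction. Of the factors that bind class II promoters with Ciita, Rfxap differed by 0.36 ± 0.07, Rfx5 by -0.05 ± 0.39 and Rfxank by -0.15 ± 0.09. The NF-Y subunit genes Nfya (0.05 ± 0.38), Nfyb (0.02 ± 0.07) and Nfyc (0.22 ± 0.09) had small differences.

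Probes of the same gene gave differences of unlike size, among probes well above background on both arrays most of all in RT1-Bb. Of 63 probes of the 53 genes, 48 gave a signal well above background on each array, of which 46 were higher in the aneurysm, 8 of them by 2-fold or more. Shares over all probes of the array were not computed. Among all genes measured on both arrays 50% were higher and 0.455% at least 2-fold higher. Several of the probes belong to the same or near-identical genes, so they are not separate observations. In the 7 genes with several such probes the median gap between the probes' differences was 0.45, against 0.23 over 1906 genes of the array. The second RT1-Bb probe had 1.87 and 1.85 in the aneurysm and 0.05 and 0.09 in the control, a difference of 1.79 ± 0.07 beside 0.12 ± 0.08 on the brightest probe. The gap of 1.67 ± 0.10 exceeded 1, as it did in 43 of the 1906 genes (2.26%). RT1-A1 differed by 1.18 ± 0.08 on its second probe, past 2-fold as on that of RT1-Db1, whereas RT1-CE2 differed by only 0.49 ± 0.14 and RT1-CE5 by 0.45 ± 0.26 on theirs. The RT1-S2 probes differed by 0.86 ± 0.06 and 0.88 ± 0.08, which is within their errors. With the second probe in place of the brightest, a choice added after seeing the data, the class II median was 0.55. With this choice 8 of the 45 genes were at least 2-fold higher, against 0.899% of all genes. What the probes bind was not tested.

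**Figure D4:**
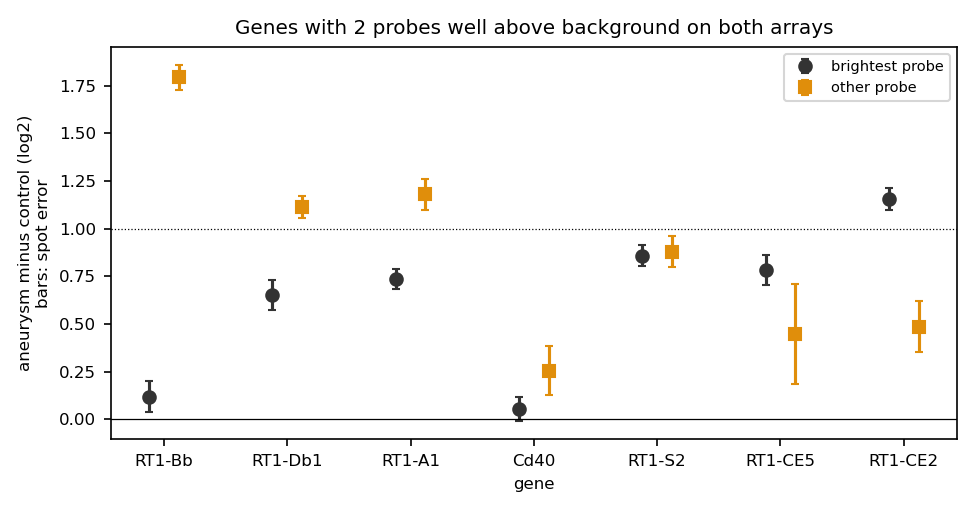
Difference, aneurysm minus control (log2), on the brightest probe (circles) and the other probe (squares) of the 7 antigen presentation genes with 2 probes well above background on both arrays, with spot errors as bars and a dotted line at 2-fold. The probes of RT1-Bb stand 1.67 apart, those of RT1-S2 nearly coincide, and all 14 values are above 0.

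Peptide supply genes had small differences. Psmb8, the immunoproteasome subunit with chymotrypsin-like activity, had 0.47 and 0.52 in the aneurysm against 0.06 and 0.04 in the control (0.45 ± 0.07, 1.36-fold), while Psmb5, the constitutive subunit whose place it takes, differed by -0.01 ± 0.06. Psmb9 differed by 0.20 ± 0.06, about as much as its constitutive counterpart Psmb6 (0.21 ± 0.06). Psmb10 differed by -0.06 ± 0.06, with 2.60 and 2.59 in the aneurysm and 2.68 and 2.62 in the control, and its counterpart Psmb7 by 0.15 ± 0.06. Psmb10 differed by 0.0026 with normexp and by 0.25 with spike-in scaling. Of the 3 pairs, then, only that of Psmb8 and Psmb5 had a higher value for the immunoproteasome subunit beyond the spot errors.

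All 6 measured genes of peptide transport and loading were higher, against 50.2% of all genes, with a median of 0.21. Only Tap1 was at least 1.5-fold higher, and Canx and Calr were lower under 1 or more other settings. Tap1 and Tap2 form the peptide transporter. Tap1 had -2.47 and -2.54 in the aneurysm and -3.04 and -3.24 in the control (0.63 ± 0.17, 0.29 with normexp), and Tap2 had 1.59 and 1.60 in the aneurysm and 1.34 and 1.37 in the control (0.23 ± 0.06). Pdia3, the disulfide isomerase of the loading complex, differed by 0.33 ± 0.06 and Tapbp (tapasin) by 0.18 ± 0.08. The chaperones Canx (calnexin, 0.08 ± 0.09) and Calr (calreticulin, 0.05 ± 0.06) had differences within their spot errors, which were -0.06 and -0.09 when centred on smooth muscle markers. Erap1, the aminopeptidase that trims peptides, had no matched probe.

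Co-stimulatory genes showed no clear difference. Cd40, a receptor on antigen-presenting and vascular cells, had 0.33 and 0.43 in the aneurysm and 0.27 and 0.38 in the control, overlapping spots with a difference of 0.05 ± 0.06 (-0.09 when centred on smooth muscle markers, and 0.26 ± 0.13 on its second probe). Cd86, a ligand of CD28, was well above background on the aneurysm array only, with a bound of 1.16-fold (0.21 ± 0.61) that is smaller than its spot error. Neither array had Cd80, the other CD28 ligand, well above background.

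Of the other genes of the pathway, from a list of 54 receptors, regulators, proteases and related molecules, 50 had a matched probe, 42 had a difference, 7 were not well above background and 1 (Lag3) allowed no bound. The differences were small: 33 were higher in the aneurysm (78.6%, against 50.2% of all genes) and 9 lower. Their median was 0.14, and -0.01 when centred on smooth muscle markers. Only 1 was at least 2-fold higher (2.38%, against 0.882% of all genes). It was the co-receptor gene Cd8a, named after its value was seen, with a bound of 2.10-fold (1.07 ± 0.54) that equals the measured difference. Another 1 was at least 2-fold lower, against 3.91% of all genes. That gene was Tapbpl, a relative of tapasin that edits class I peptides, with -4.10 in the aneurysm and -2.90 in the control (-1.20 ± 0.27). Its difference was under 2-fold with normexp (-0.80) and with spike-in scaling (-0.90). The largest differences among genes measured on both arrays were, after Tapbpl, those of Procr (0.84 ± 0.26, 0.21 with normexp), a class I-like receptor of protein C, and Cd4 (0.64 ± 0.26, 0.16 with normexp), the class II co-receptor. Next were the protease Ctsl (0.49 ± 0.05), Cd8b (0.48 ± 0.49, -0.12 with normexp) and the interferon gamma receptor chain Ifngr1 (0.48 ± 0.06). The class I-like genes Cd1d1 (0.44) and Fcgrt (0.38), the invariant chain protease Ctss (0.31) and the endosomal protease Lgmn (0.35) were higher by less than 1.5-fold. These genes are named beyond the 6 largest. The proteases Ctsb (-0.02 ± 0.05) and Ctsd (-0.14 ± 0.05) of the same list were not higher.

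The interferon response list and the cell type lists were set beside the antigen presentation genes. Among all genes 50.2% were higher in the aneurysm library. Of 13 interferon response genes 12 were higher in the aneurysm library, with a median of 0.56 (0.42 to 0.87 over the settings). Their values ran from -0.10 for Mx2 to 0.94 for Ifit3, with Irf1 at 0.19. At least 1.5-fold higher were 5 of the 13 (38.5%, against 4.25% of all genes). The 14 macrophage markers had a median of 0.23, with 11 higher and 3 lower, and a summed scaled signal of 113.7 in the aneurysm and 99.6 in the control. Values of the macrophage markers ran from -0.05 ± 0.06 for Cd68 to 0.65 ± 0.09 for Cd163. For T and NK cells 8 of 9 measured markers were higher (median 0.36, 0.05 with normexp), with a sum of 1.45 in the aneurysm against 1.20 in the control, and Cd2 and Ncr1 were not well above background. Cd4, Cd8a and Cd8b stand both in this list and among the other pathway genes, and Irf1 stands both there and in the interferon list. Of 11 dendritic cell markers 5 were measured (median 0.10, -0.21 with normexp), with sums of 2.69 in the aneurysm and 2.17 in the control, and Ccr7 and Xcr1 were not well above background. B cell markers gave 2 values, whose median was -0.04 (0.26 under spike-in scaling) and whose sums were 0.580 in the aneurysm and 0.673 in the control, and Cd22 and Cd79b were among those not well above background. The 5 leukocyte markers had a median of 0.13 (-0.02 when centred on smooth muscle markers) and nearly equal sums, 17.7 in the aneurysm and 17.6 in the control. The 7 endothelial markers had a median of 0.17 (-0.01 with normexp), with sums of 17.8 in the aneurysm and 16.6 in the control, and the 6 fibroblast markers a median of 0.48, with sums of 168.3 in the aneurysm and 155.3 in the control. The part of each cell type in the antigen presentation differences was not tested.

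**Figure D5:**
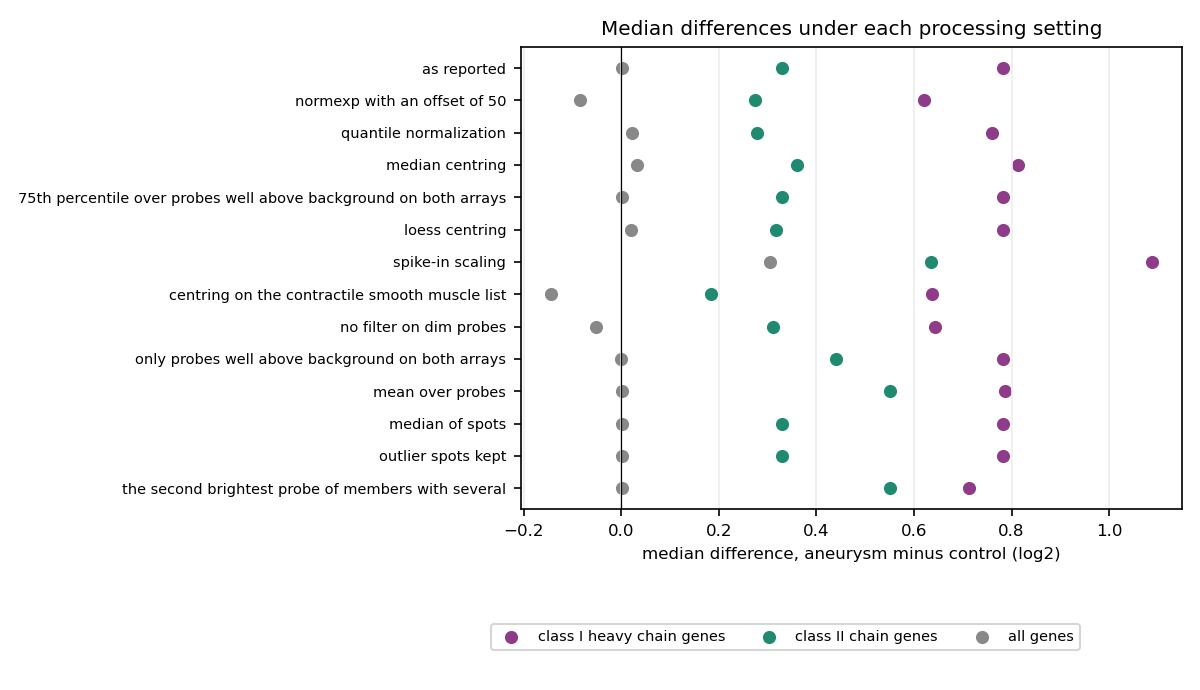
Median difference, aneurysm minus control (log2), of the class I heavy chain genes (purple), the class II chain genes (green) and all genes (grey) under each processing setting, 1 row per setting. The class I median stays the highest in every row, between 0.62 with normexp and 1.09 with spike-in scaling, and all genes shift with the scaling.

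The class I median stood above the class II median in each setting run. For the classical class II chains RT1-Da, RT1-Db1 and RT1-Bb alone the order was reversed in some settings. Their median was 0.88 as the mean over probes, against 0.79 for class I. On the second probes, a choice added after seeing the data, it was 1.11, against 0.71 for class I. The all-gene median was -0.08 with normexp, -0.14 with smooth muscle centring and 0.30 with spike-in scaling. The class I medians under the same settings were 0.62, 0.64 and 1.09, and the class II medians 0.27, 0.18 and 0.63. Of the 41 genes with a value under all 12 other settings 31 had the same sign in each, among them 18 of 22 class I heavy chains. Cd86, RT1-CE6, RT1-Ha and RT1-M1-2 had the same sign in the 10 or 11 settings that gave them a value.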

How the data were processed

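Total RNA of each tissue was labelled in 1 colour, per the labels' protocols. The files deposited by the authors hold the scanner output (62976 spots) of Feature Extraction, in version 10.10.1.1 according to those files, and its processed spot intensity, which is linear per the file headers, was used here with its flags. Both arrays lay on 1 slide and were read in 1 scan, per the file headers.

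The log2 intensity was scaled to the 75th percentile of non-control spots (801 on the aneurysm array, 621 on the control array), outlier spots (573 on the aneurysm array, 484 on the control array) were left out and spots averaged. Accessions of 18006 of 30367 probes matched 1 gene of a RefSeq table of another build, used for names and gene order only. The brightest probe stands for a gene, among those well above background on 1 array or both. Genes measured on 1 array have a bound, against the dim value or, where higher, that array's lowest level well above background (-6.86 in the aneurysm, -6.41 in the control), and in each such antigen presentation gene the dim value was used. There the bound equals the measured difference and, given its spot error, is not a strict lower limit. The spot error comes from the spot SD pooled in 20 signal bins. Python 3.11.15, numpy 2.4.6, pandas 2.3.3, statsmodels 0.14.6 and limma 3.58.1 were used, and the code was tested on simulated data. The genes, the lists and the choice to name all antigen presentation genes plus the 6 largest of the other pathway genes were made with earlier results of these data known. Of the 30 genes without a matched probe 19 are pseudogenes. Normexp (offset 50) had been planned on mean signals, which are not used here, and was run on median signals instead. Some members of the lists are not reported here.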

Additional observations from a re-analysis of the deposited data

How the results depend on the processing

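No paired analysis was possible because each group has 1 array, and for the same reason no replicate could be left out. The counts and medians were recomputed under 12 other settings, with a 1.5-fold threshold, leaving out class I, and the second probe, which was added after seeing the data. The medians over all antigen presentation genes, class I and class II kept their sign in each. With normexp the median over all antigen presentation genes was 0.29 and that of class I 0.62. In that setting 2 genes were at least 2-fold higher (against 0.121% of all genes) and 0 lower (against 1.67%). Spike-in scaling gave medians of 0.70 for all antigen presentation genes, 1.09 for class I and 0.63 for class II. Under it 14 genes were at least 2-fold higher (against 2.60% of all genes) and 1 lower (against 2.78%). Smooth muscle centring gave 0.25, 0.64 and 0.18, with 3 higher (against 0.487%). Quantile normalization and loess each left 1 gene at least 2-fold lower. Without a filter on dim probes the class I median was 0.64. With probes well above background on both arrays alone, 0 genes were 2-fold lower, against 2.12% of all genes, and the class II median was 0.44. The class II median was 0.55 as the mean over probes and 0.55 on the second probe. At 1.5-fold 18 genes were higher, against 4.25% of all genes, and without class I the median over the rest was 0.23. Among all genes called at 2-fold, 18.4% were higher in the aneurysm as reported (105 higher, 465 lower), 6.76% with normexp (14 and 193), 28.9% with quantile normalization (165 and 406) and 48.4% with spike-in scaling (311 and 332). Smooth muscle centring gave 9.09% (58 and 580), dropping the filter gave 183 higher and 756 lower, and probes on both arrays alone gave 51 and 237. Of 657 single gene values under the alternatives 112 moved by more than the spot error. The cause of these shifts was not tested. Dim genes such as RT1-CE6, RT1-CE12, RT1-M1-2 and RT1-Ha are limited by signal over background.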
